A study of Mus musculus with 12 samples.

Results

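Interferon-stimulated genes are genes that a cell switches on when interferon reaches its receptor. The 43 described here were taken by symbol from a table of 48795 genes, each symbol matched 1 row, and the 43 genes lie on 15 chromosomes. RNA-seq read counts came from the piriform cortex, the cortical target of the olfactory bulb, of 12 mice aged 12 months on a C57BL/6 background: 6 carried the Q140 knock-in on 1 of their copies of Htt and 6 were wild type, with 3 females and 3 males of each genotype. The Q140 allele is a copy of Htt, under its own promoter, whose opening exon carries an expanded CAG repeat, the lesion of Huntington's disease, and every Q140 animal also kept 1 wild-type copy. Each library is 1 animal, so p-values measure the spread between animals, and the labels do not say whether the groups were littermates. The piriform samples are whole tissue, in which fewer cells of a type and less RNA per cell cannot be told apart.

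In the textbook pathway, foreign or misplaced nucleic acid is sensed in the cell, interferon is made and released, and its receptor signals through JAK kinases to transcription factors, STAT2 and IRF9 among them, which bind a short DNA element, the interferon-stimulated response element (ISRE), in front of the induced genes. The proteins made in turn block viral entry, translation and assembly, tag other proteins with ISG15, and feed back on sensing and signalling. In brain, microglia, macrophages of the vessel walls and meninges, endothelium and neurons are all able to respond.

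The sequences before the start sites show that element in 6 of the genes described below, those with the smallest p among the genes past the threshold and with a match. The search used the letters GAAANNGAAA, or TTTCNNTTTC on the other strand, in RefSeq's windows of 300 bases around each start site (build GRCm38.p6), which held an entry for 32 of the 43 genes. Sequences are printed 5′ to 3′ on the strand of the gene, with the matched bases in capitals, and overlapping matches run together.
Irgm1, chr11:48871428-48871457, minus strand: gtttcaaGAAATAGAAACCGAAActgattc
Bst2, chr8:71537547-71537642, minus strand: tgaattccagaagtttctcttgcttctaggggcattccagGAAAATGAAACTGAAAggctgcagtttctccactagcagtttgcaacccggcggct
Oas1a, chr5:120907526-120907585, minus strand: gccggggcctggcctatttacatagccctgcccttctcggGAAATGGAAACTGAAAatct
Igtp, chr11:58199482-58199555, plus strand: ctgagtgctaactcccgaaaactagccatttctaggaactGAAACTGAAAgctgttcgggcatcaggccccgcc
Isg15, chr4:156200835-156200936, minus strand: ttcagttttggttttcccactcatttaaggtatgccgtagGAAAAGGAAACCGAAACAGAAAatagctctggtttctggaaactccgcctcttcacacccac
Ifit1, chr19:34640745-34640853, plus strand: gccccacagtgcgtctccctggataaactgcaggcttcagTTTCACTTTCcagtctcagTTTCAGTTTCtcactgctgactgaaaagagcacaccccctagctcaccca
The match nearest the start began 14 bases before it in Oas1a and 85 bases before it in Ifit1, where it lies on the other strand. Irgm1 is shown with 30 bases because an annotated exon of another of its transcripts covers this stretch. A match was present for 18 of the 32 genes (56.25%), against 1079 of 27025 symbols (3.99%) over all such windows. By outcome it was present for 8 of the 13 genes with a window that were higher in Q140 animals and for 9 of the 16 that were tested and did not pass. Herc6, the gene that was lower, had no match. These matches describe letters in a window and were not tested as binding sites.

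Depth was 19587208 to 35198602 counted reads per animal, in which a count of 0 allows at most 0.149 to 0.0853 CPM (3 counts, counting error only; CPM, counts scaled to library size and composition). Htt ranged from 179.8 to 204 CPM in wild types and from 143 to 164 CPM in Q140 animals without overlap (log2 difference -0.37, adjusted p = 0.000125), and the counts do not separate its alleles. Wild type 3, a female, had the lowest summed level of meningeal fibroblast markers, 31.8 CPM, while wild type 4, a male, had 421 CPM. Animals are named by genotype and a number, which only names them.

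Of the 43 genes, 39 had enough reads to be tested, and 19 of these were higher in Q140 animals at an edgeR adjusted p below 0.05, against 4.55% of all 17725 genes tested. A single gene, Herc6, was lower, against 6.59% of all genes, and 19 did not pass. Because the genes were chosen with earlier results of these data known, the contrast with all genes is a description and not a test. The median difference between genotypes over the 39 was 0.44 on the log2 scale, beside 0.0045 over all genes, and the estimate was above 0 for 37 of them. Stat2 and Herc6 were the exceptions. Scaling by library totals alone, without the composition factors, gave 24 higher genes and 1 lower, with 9.21% of all genes higher. For 4 genes all 6 Q140 animals lay above all 6 wild types, against 1.88% of all genes. For 1 gene all 6 lay below, against 2.7%. The level at which a gene counts as measurable was reached in all 6 wild types by 38 of the 39, and by Ifi44 in 5 of them, so Ifi44 alone needed Q140 animals to reach the 6 libraries that the filter asks for.

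**Figure D1:**
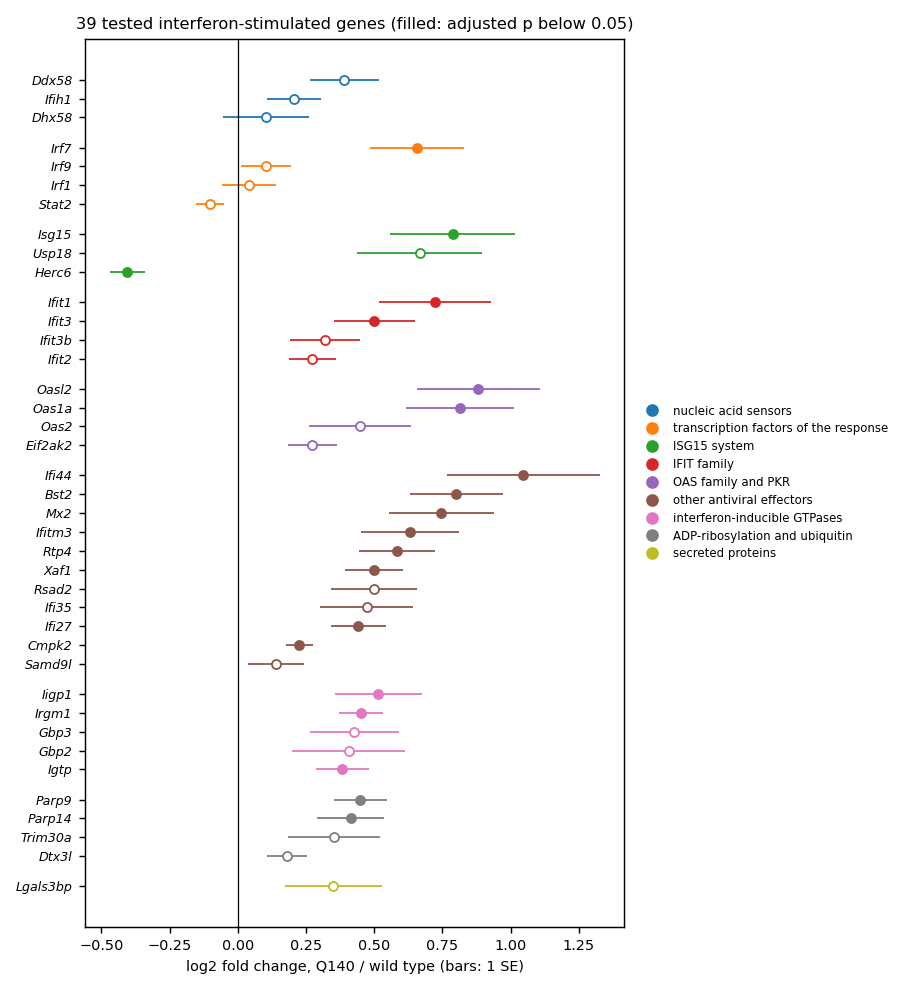
Each point is the log2 fold change of 1 tested gene, Q140 against wild type, with 1 standard error either way, grouped by role. Filled points passed an adjusted p of 0.05: 19 lie to the right of 0 and Herc6, at -0.40, to the left.

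Of the sensors of viral nucleic acid, none of the 3 that could be tested passed. Ddx58 (ENSMUSG00000040296, chromosome 4, 40203773 to 40239828), which encodes RIG-I, ranged from 4.35 to 8.53 CPM in wild types and from 6.65 to 9.18 CPM in Q140 animals (1.31-fold, log2 0.39 ± 0.13 SE, adjusted p = 0.0591). Ifih1, which encodes MDA5, differed by 0.21 on the log2 scale (adjusted p = 0.201) and Dhx58, which encodes LGP2, by 0.10 (adjusted p = 0.723). Zbp1, a sensor of Z-form nucleic acid, was too low to test, with 24 reads over the wild types and 60 over the Q140 animals (0.0396 ± 0.0207 FPKM in wild types and 0.0906 ± 0.0608 FPKM in Q140 animals, SD over 6 animals).

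Among the transcription factors of the response only Irf7, the factor that amplifies interferon output, passed. Irf7 (ENSMUSG00000025498, chromosome 7, 141262706 to 141266481) stood at 1.59, 1.80 and 3.54 CPM in wild types and 2.73, 3.13 and 4.13 CPM in Q140 animals, where 3 such values are here and below the lowest, the median and the highest of 6 animals. 5 of the 6 wild types lay below every Q140 animal, and wild type 5 lay among them. The difference was 1.58-fold (log2 0.66 ± 0.17 SE, adjusted p = 0.0239). The 3 other factors did not pass: Stat2 and Irf9, which act together at the ISRE, and Irf1, a factor induced mainly by interferon gamma. Stat2 was one of the most abundant of the 43 genes by length-scaled level, at 9.39 ± 0.561 FPKM in wild types and 9.07 ± 0.912 FPKM in Q140 animals, SD over 6 animals, and differed by -0.10 on the log2 scale (adjusted p = 0.212). Irf9 differed by 0.10 (adjusted p = 0.517) and Irf1 by 0.040 (adjusted p = 0.842).

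The ISG15 system held genes that changed in opposite directions. Isg15 (ENSMUSG00000035692, chromosome 4, 156199424 to 156200818) encodes the ubiquitin-like protein that is attached to other proteins. Isg15 stood at 0.704, 0.751 and 1.67 CPM in wild types and 0.928, 1.72 and 1.95 CPM in Q140 animals. In 4 of the 6 Q140 animals the level exceeded every wild type, and wild type 4 was the highest of its group. Isg15 rose 1.73-fold (log2 0.79 ± 0.23 SE, adjusted p = 0.0374), and it passed in 12 of 29 alternatives, the other fits listed under processing. Herc6 (ENSMUSG00000029798, chromosome 6, 57581000 to 57664632) encodes the ligase that attaches ISG15 to targets in mice. Herc6 stood at 13.4, 15.1 and 16.95 CPM in wild types and 10.7, 11.2 and 12.6 CPM in Q140 animals. Every Q140 animal was below every wild type, and Herc6 had the smallest p of the 39 tested. Its fold change was 0.756-fold (log2 -0.40 ± 0.065 SE, adjusted p = 0.00131). An annotated gene on the same strand, Gm45193, which was listed at 0 reads in every animal, covers 13.7% of the exon bases of Herc6, and how the counting assigned reads there is not given. Usp18, which removes ISG15 and damps the receptor, ranged from 0.760 to 1.21 CPM in wild types and from 0.947 to 2.67 CPM in Q140 animals and did not pass (1.59-fold, log2 0.67 ± 0.23 SE, adjusted p = 0.0744).

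In the IFIT family, RNA-binding proteins that block translation of foreign messages, 2 of 4 genes rose. All 4 lie in 1 cluster on chromosome 19, between 34550694 and 34650009 (GRCm38). Ifit1 (ENSMUSG00000034459, chromosome 19, 34640871 to 34650009) stood at 2.04, 2.40 and 3.76 CPM in wild types and 3.13, 3.79 and 6.91 CPM in Q140 animals. 4 of the Q140 animals lay above all wild types, and wild type 4 was again the highest of its group. Ifit1 rose 1.65-fold (log2 0.72 ± 0.21 SE, adjusted p = 0.0377), and it passed in 14 of 29 alternatives. Ifit3 ranged from 4.87 to 9.75 CPM in wild types and from 8.24 to 13.1 CPM in Q140 animals, and rose 1.41-fold (log2 0.50 ± 0.15 SE, adjusted p = 0.0454). Ifit3 passed in 11 of 29 alternatives. Its near copy Ifit3b (1.248-fold, log2 0.32 ± 0.13 SE, adjusted p = 0.124) and Ifit2 (1.21-fold, log2 0.27 ± 0.086 SE, adjusted p = 0.0510) did not pass. Of the 50-base stretches of the Ifit3 transcripts, 51.2% also occur in another gene, mainly Ifit3b, and 45.0% of those of Ifit3b occur mainly in Ifit3, so reads of this pair are uncertain.

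Among the oligoadenylate synthetases, which make the messenger that activates RNase L, their relatives, and the kinase gene Eif2ak2, 2 of 4 tested genes rose. Oasl2 (ENSMUSG00000029561, chromosome 5, 114896936 to 114912234) stood at 2.83, 4.13 and 6.11 CPM in wild types and 5.28, 6.89 and 11.6 CPM in Q140 animals. Only 3 Q140 animals exceeded wild type 4, the highest of its group, although 5 wild types lay below all Q140 animals. Oasl2 rose 1.84-fold (log2 0.88 ± 0.23 SE, adjusted p = 0.0270). Oas1a (ENSMUSG00000052776, chromosome 5, 120896256 to 120907521) stood at 0.418, 0.524 and 0.709 CPM in wild types and 0.689, 0.956 and 1.23 CPM in Q140 animals. Here 5 Q140 animals lay above all wild types, and the highest wild type was number 6. Oas1a rose 1.76-fold (log2 0.81 ± 0.20 SE, adjusted p = 0.0163), and 57.6% of its 50-base stretches also occur in other genes, mainly Oas1g and Oas1b. Oas2 (1.36-fold, log2 0.45 ± 0.19 SE, adjusted p = 0.140) and Eif2ak2, which encodes the kinase PKR that halts translation (1.21-fold, log2 0.27 ± 0.090 SE, adjusted p = 0.0623), did not pass. Oasl1, an inhibitor of Irf7 translation, was too low to test, at 37 reads over the wild types and 74 over the Q140 animals (0.0841 ± 0.0546 FPKM in wild types and 0.150 ± 0.0456 FPKM in Q140 animals, SD over 6 animals).

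The largest group was made up of other antiviral effectors, of which 8 of 11 tested genes rose. Bst2 (ENSMUSG00000046718, chromosome 8, 71534255 to 71537456) encodes tetherin, which holds budding virus at the membrane. Bst2 stood at 1.73, 1.90 and 3.13 CPM in wild types and 2.36, 4.03 and 4.49 CPM in Q140 animals. Q140 animal 4 lay within the wild type range and the other 5 lay above it. Bst2 rose 1.74-fold (log2 0.80 ± 0.17 SE, adjusted p = 0.00766). Xaf1 (ENSMUSG00000040483, chromosome 11, 72301629 to 72313733), a partner of the apoptosis inhibitor XIAP, stood at 4.70, 5.34 and 6.44 CPM in wild types and 6.43, 7.35 and 9.67 CPM in Q140 animals. 5 Q140 animals exceeded all wild types. Xaf1 rose 1.41-fold (log2 0.50 ± 0.11 SE, adjusted p = 0.00772). Cmpk2 (ENSMUSG00000020638, chromosome 12, 26469204 to 26479837), a nucleotide kinase of mitochondria, stood at 16.3, 18.05 and 19.1 CPM in wild types and 19.5, 21.3 and 21.95 CPM in Q140 animals. The groups did not overlap for Cmpk2, although its rise was the smallest of the 19: 1.17-fold (log2 0.23 ± 0.050 SE, adjusted p = 0.00978).

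Ifi27 (ENSMUSG00000064215, chromosome 12, 103434211 to 103440239), a small membrane protein, stood at 12.6, 14.2 and 17.98 CPM in wild types and 17.3, 19.3 and 24.9 CPM in Q140 animals. 4 Q140 animals exceeded wild type 5, the highest of its group. Ifi27 rose 1.36-fold (log2 0.44 ± 0.10 SE, adjusted p = 0.0137). Rtp4 (ENSMUSG00000033355, chromosome 16, 23520291 to 23614222), a chaperone of membrane receptors, stood at 1.32, 1.85 and 1.97 CPM in wild types and 2.03, 2.67 and 3.13 CPM in Q140 animals. All Q140 animals lay above all wild types. Rtp4 rose 1.498-fold (log2 0.58 ± 0.14 SE, adjusted p = 0.0151), with 13.9% of its exon bases inside a same-strand gene, Gm45338. Mx2 (ENSMUSG00000023341, chromosome 16, 97535308 to 97560900), a dynamin-like antiviral GTPase, stood at 0.857, 0.957 and 1.34 CPM in wild types and 1.26, 1.596 and 2.47 CPM in Q140 animals. 5 Q140 animals exceeded wild type 4, the highest of its group. Mx2 rose 1.68-fold (log2 0.75 ± 0.19 SE, adjusted p = 0.0227).

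Ifi44 (ENSMUSG00000028037, chromosome 3, 151730922 to 151749960), an interferon-induced cytoplasmic protein, showed the largest fold of the 39 tested genes, on few reads. Ifi44 stood at 0.207, 0.580 and 1.13 CPM in wild types and 0.812, 1.07 and 2.12 CPM in Q140 animals, from 99 reads over the wild types and 227 over the Q140 animals. Q140 animal 5 alone exceeded wild type 4. Ifi44 rose 2.06-fold (log2 1.05 ± 0.28 SE, adjusted p = 0.0260), and it passed in 15 of 28 alternatives. Ifitm3, a membrane protein that blocks viral fusion, had the highest length-scaled level of the 43 genes, at 12.3 ± 4.02 FPKM in wild types and 19.3 ± 3.98 FPKM in Q140 animals, SD over 6 animals. Its reads ranged from 5.73 to 12.0 CPM in wild types and from 10.03 to 17.6 CPM in Q140 animals, so the groups overlapped, and it rose 1.55-fold (log2 0.63 ± 0.18 SE, adjusted p = 0.0423). Ifitm3 passed in 13 of 29 alternatives. Next in length-scaled level came Ifi27, at 9.88 ± 1.47 FPKM in wild types and 13.8 ± 1.87 FPKM in Q140 animals, SD over 6 animals. Rsad2, which encodes viperin (1.41-fold, log2 0.50 ± 0.16 SE, adjusted p = 0.0524), Ifi35 (1.39-fold, log2 0.47 ± 0.17 SE, adjusted p = 0.0889) and Samd9l (1.103-fold, log2 0.14 ± 0.10 SE, adjusted p = 0.412) did not pass. Rsad2 and Cmpk2 are neighbours, 12752 bases apart on chromosome 12. Mx1 was too low to test, with 42 reads over the wild types and 80 over the Q140 animals (0.0670 ± 0.0382 FPKM in wild types and 0.1195 ± 0.0536 FPKM in Q140 animals, SD over 6 animals).

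**Figure D2:**
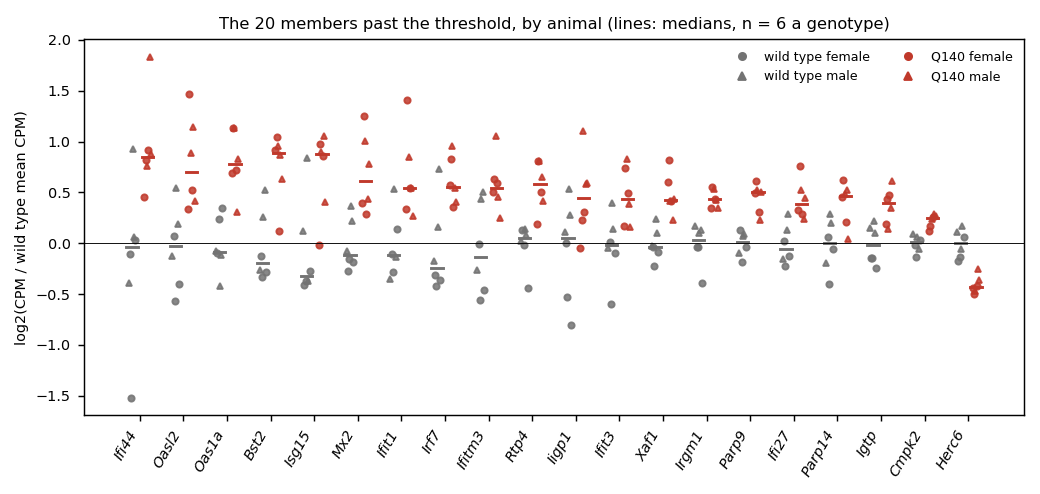
Each point is 1 animal's CPM divided by the wild type mean, on a log2 scale, for the 20 genes past the threshold, and lines mark the medians of 6 animals. Irgm1, Parp9, Cmpk2 and Rtp4 show no overlap between genotypes above the line and Herc6 none below it, while Ifi44 in Q140 animal 5 and Isg15 in wild type 4 lie far from the rest of their groups.

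Among the interferon-inducible GTPases, which attack the vacuoles that hold intracellular microbes, 3 of 5 rose. Irgm1 (ENSMUSG00000046879, chromosome 11, 48861968 to 48871683), a regulator of the other immunity-related GTPases, stood at 7.57, 10.1 and 11.2 CPM in wild types and 12.6, 13.4 and 14.5 CPM in Q140 animals. No Q140 animal overlapped with a wild type. Irgm1 rose 1.37-fold (log2 0.45 ± 0.080 SE, adjusted p = 0.00251). Igtp (ENSMUSG00000078853, chromosome 11, 58199556 to 58207591), a GTPase of the same family, stood at 4.56, 5.36 and 6.27 CPM in wild types and 5.96, 7.10 and 8.24 CPM in Q140 animals. 4 Q140 animals exceeded wild type 4, the highest of its group. Igtp rose 1.30-fold (log2 0.38 ± 0.10 SE, adjusted p = 0.0217), and 11.8% of its 50-base stretches also occur in another gene, Irgm2. Iigp1 lay just inside the threshold, ranging from 0.946 to 2.38 CPM in wild types and from 1.596 to 3.54 CPM in Q140 animals (1.43-fold, log2 0.51 ± 0.16 SE, adjusted p = 0.0485). Iigp1 passed in 11 of 29 alternatives. Gbp3 (1.34-fold, log2 0.43 ± 0.16 SE, adjusted p = 0.114) and Gbp2 (1.33-fold, log2 0.41 ± 0.21 SE, adjusted p = 0.232), guanylate-binding proteins, did not pass.

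ADP-ribosylation and ubiquitin were represented by 4 genes, of which 2 rose. Parp9 (ENSMUSG00000022906, chromosome 16, 35938470 to 35972605) works as a pair with the ubiquitin ligase Dtx3l. Parp9 stood at 3.45, 3.96 and 4.29 CPM in wild types and 4.59, 5.54 and 6.00 CPM in Q140 animals without overlap. Parp9 rose 1.36-fold (log2 0.45 ± 0.10 SE, adjusted p = 0.00817). Its partner Dtx3l is transcribed the other way from an overlapping locus, with 9.40% of the Parp9 exon bases shared, and did not pass (1.13-fold, log2 0.18 ± 0.074 SE, adjusted p = 0.136). Parp14, the neighbour of the pair, ranged from 3.97 to 6.40 CPM in wild types and from 5.41 to 8.07 CPM in Q140 animals and rose 1.33-fold (log2 0.41 ± 0.12 SE, adjusted p = 0.0426). Parp14 passed in 12 of 29 alternatives. Trim30a, a ubiquitin ligase that damps signalling, did not pass (1.28-fold, log2 0.35 ± 0.17 SE, adjusted p = 0.198). Of the secreted proteins, the galectin ligand Lgals3bp did not pass (1.27-fold, log2 0.35 ± 0.18 SE, adjusted p = 0.245). The chemokine gene Cxcl10 was too low to test, with 68 reads over the wild types and 63 over the Q140 animals.

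Within females, 9 of the 39 genes were higher in Q140 animals (3 against 3), against 2.85% of all genes, and Herc6 was lower. DESeq2 gave 18 higher and limma voom 29. Leaving out 1 animal gave 2 without wild type 3 or Q140 animal 2 and 3 without wild type 6. Over both sexes, DESeq2 called 5.61% of all genes higher and voom 5.99%. The share was 2.58% without wild type 3, 2.34% without Q140 animal 2 and 3.76% without wild type 6. Shares within females are not given for these fits, so their counts cannot be set against all genes. The 5 genes with the smallest p in females with edgeR were Xaf1, Irgm1, Ddx58, Igtp and Irf7. Xaf1 read 5.33, 4.70 and 5.13 CPM in the wild type females and 8.30, 9.67 and 7.27 CPM in the Q140 females. All 3 Q140 females lay above the wild type females (log2 difference 0.73, adjusted p = 0.00421). Irgm1 differed by 0.59 (adjusted p = 0.00446), Ddx58 by 0.66 (adjusted p = 0.0194), Igtp by 0.55 (adjusted p = 0.0204) and Irf7 by 0.96 (adjusted p = 0.0221).

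Within males, none of the 39 was higher at that threshold with edgeR, against 0.463% of all genes, or with DESeq2 or limma voom. At an unadjusted p below 0.05 edgeR gave 7 higher, beside 1327 of all 17725 genes. Herc6 was lower in males as well (log2 difference -0.44, adjusted p = 0.0331). Xaf1 read 5.36, 6.44 and 5.85 CPM in the wild type males and 7.30, 6.43 and 7.40 CPM in the Q140 males, where the lowest Q140 male lay just under the highest wild type (log2 difference 0.26, adjusted p = 0.341). The median log2 difference over the 39 genes was 0.58 in females and 0.26 in males, beside 0.0044 and -0.00011 over all genes, and 34 of the 39 estimates were larger in females.

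A test of the difference between the sexes passed for none of the 39 genes with edgeR, DESeq2 or limma voom, and for 0% of all genes. At an unadjusted p below 0.05 edgeR found 2 of the 39, beside 1609 of all 17725 genes. The 2 were Xaf1 (log2 difference of males minus females -0.48, adjusted p = 0.473) and Ddx58 (-0.54, adjusted p = 0.494). The larger values in females are therefore a description. Wild types 3 and 6, which had the lowest average levels of the genes, are both female. Q140 animals 1 and 2, both female, have names without a letter prefix, which no wild type has, and wild type 6 alone has the prefix FMQ. Every Q140 male has the prefix RFQ, which wild type 4 alone of the wild types has. Within each sex, genotype can therefore be told apart from the name prefix only in part. Males and females differed for none of the 39 with edgeR, against 0.694% of all genes, and for 1 with DESeq2. At an unadjusted p below 0.05 edgeR gave 5 of the 39, beside 2306 of all 17725 genes. The smallest of these p-values belonged to Iigp1 (log2 0.65 in males against females, adjusted p = 0.0849).

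**Figure D3:**
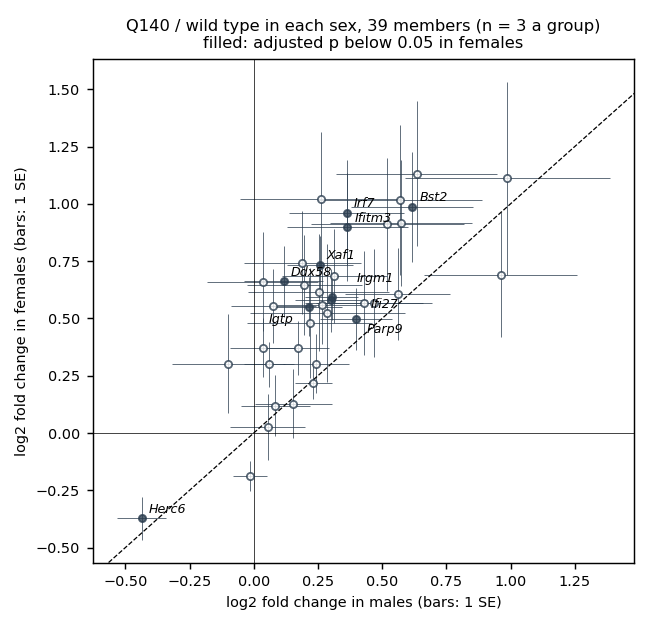
Each point is 1 of the 39 tested genes, with its log2 fold change in males on the horizontal axis and in females on the vertical axis, and bars of 1 standard error. For 34 of the 39 the point lies above the dashed line of equal change, and Herc6 lies below 0 on both axes.

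Upstream of these genes, reads of the interferon genes were too few to test at this depth, and interferon protein was not measured. Of 21 interferon genes 14 had no read in any animal, among them Ifnb1 and Ifng, and the other 7 had 11 reads in all, 8 in wild types and 3 in Q140 animals. A total of 0 allows at most 0.0176 CPM over the wild types and 0.0161 CPM over the Q140 animals (3 counts over the group, counting error only). Of 18 genes of the receptors and JAK-STAT signalling, none was higher and 1 was lower, near the 6.59% of all genes that were lower. It was Socs3, an inhibitor of JAK signalling, with 5.57 to 8.14 CPM in wild types and 3.95 to 6.04 CPM in Q140 animals (0.744-fold, log2 -0.43 ± 0.12 SE, adjusted p = 0.0310), and it passed in 14 of 29 alternatives. Of the subunits of the type I receptor, Ifnar1 differed by -0.084 on the log2 scale (adjusted p = 0.274) and Ifnar2 by 0.16 (adjusted p = 0.0998). Stat3 (log2 0.15, adjusted p = 0.0528) and Irf3 (log2 0.20, adjusted p = 0.0761) did not pass.

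Of 14 genes of nucleic acid sensing upstream of interferon, 1 rose, near the 4.55% of all genes that were higher. It was Ticam1, the TLR3 adaptor TRIF, for which all 6 Q140 animals lay above all wild types, as for 1.88% of all genes (1.23-fold, log2 0.30 ± 0.080 SE, adjusted p = 0.0249), and it passed in 18 of 29 alternatives. Mavs, the adaptor of RIG-I and MDA5 (log2 0.29, adjusted p = 0.0532), Unc93b1, the chaperone of endosomal receptors (log2 0.22, adjusted p = 0.0523), and Trim25, which ubiquitinates RIG-I (log2 0.27, adjusted p = 0.115), did not pass. Of 8 nucleases and editors that limit self nucleic acid, 7 were tested and 1 rose, against 4.55% of all genes. It was Samhd1, which degrades the building blocks of DNA (1.14-fold, log2 0.19 ± 0.057 SE, adjusted p = 0.0415), and it passed in 13 of 29 alternatives. Rnaseh2b did not pass (log2 0.20, adjusted p = 0.112).

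In a list of 60 other interferon-stimulated genes, 59 were in the table and 50 were tested, of which 7 were higher, against 4.55% of all genes, and none was lower. The median log2 difference of the 50 was 0.26. The 4 with the smallest p were Parp12, an ADP-ribosyltransferase (1.27-fold, log2 0.34 ± 0.053 SE, adjusted p = 0.00105), Irgm2, a GTPase beside Igtp (1.56-fold, log2 0.64 ± 0.11 SE, adjusted p = 0.00197), Siglec1, the sialic acid receptor of macrophages (2.7-fold, log2 1.43 ± 0.26 SE, adjusted p = 0.00307), and Trim56, a ubiquitin ligase (1.30-fold, log2 0.38 ± 0.076 SE, adjusted p = 0.00497). Siglec1 stood at 0.367, 0.504 and 0.860 CPM in wild types and 0.861, 1.31 and 2.24 CPM in Q140 animals. All Q140 animals lay above all wild types, of which number 5 came closest. Beside them, 5 of 16 genes of MHC class I presentation were higher, against 4.55% of all genes, and none was lower, against 6.59%. These included Psme1 and Tap2, of the proteasome activator and the peptide transporter, at log2 differences of 0.32 (adjusted p = 0.00450) and 0.32 (adjusted p = 0.00905). The heavy chains H2-D1 and H2-K1 rose by 0.47 (adjusted p = 0.00694) and 0.36 (adjusted p = 0.0206).

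Across animals, the mean of the 39 genes, each centred on its own average in log2 CPM, ran from -0.47 to 0.07 in wild types and from 0.08 to 0.41 in Q140 animals. Wild type 4 was the highest of its group and had the highest wild type value of 21 of the 39 genes, and wild type 3 had the lowest of 22. Q140 animal 2 had the highest Q140 value of 21. Markers of the cells that can respond and of other cells of the tissue were summed in the same libraries. Beside the markers that passed below stand the 4.55% of all genes that were higher and the 6.59% that were lower. Perivascular macrophage markers, 6 genes of which none passed, summed to 3.73 to 24.6 CPM in wild types and 12.4 to 26.9 CPM in Q140 animals, and wild types 3 and 4 were again the ends of their group. All 6 marker estimates were above 0, at a median log2 difference of 0.60. In females the median was 1.08, with 1 marker higher, against 2.85% of all genes, and in males it was 0.24. Meningeal fibroblast markers, 11 genes of which none passed, summed to 31.8 to 421 CPM and 168 to 441 CPM. Of these 11 estimates 10 were above 0 and 1 below, at a median log2 difference of 0.49 (0.84 in females and 0.19 in males). Microglia markers, 12 genes of which Sall1 and Tmem119 were higher, summed to 383 to 486 CPM and 425 to 511 CPM. Endothelial markers, 10 genes of which none passed, summed to 253 to 353 CPM and 290 to 350 CPM. The median log2 difference was 0.15 for the microglia markers and 0.16 for the endothelial markers. Excitatory neuron markers, 5 genes of which Slc17a7 was lower, summed to 1953 to 2284 CPM in wild types and 1496 to 1882 CPM in Q140 animals without overlap. Oligodendrocyte markers, 9 genes of which Cnp, Ermn, Mag and Mog were higher, summed to 3548 to 5025 CPM and 4039.6 to 5772 CPM. Astrocyte markers, 10 genes of which S100b was higher and Slc1a2 lower, summed to 5584 to 7186 CPM and 4864 to 6423 CPM. Of 12 markers of T and NK cells 1 had enough reads to be tested and did not pass, and of 6 neutrophil markers none had, with Elane and Ly6g at 0 reads in all animals. No marker of the microglia, perivascular macrophage, meningeal, endothelial, neuron, oligodendrocyte or astrocyte lists was at 0 in all animals. The part of these cells in the result was not tested.

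**Figure D4:**
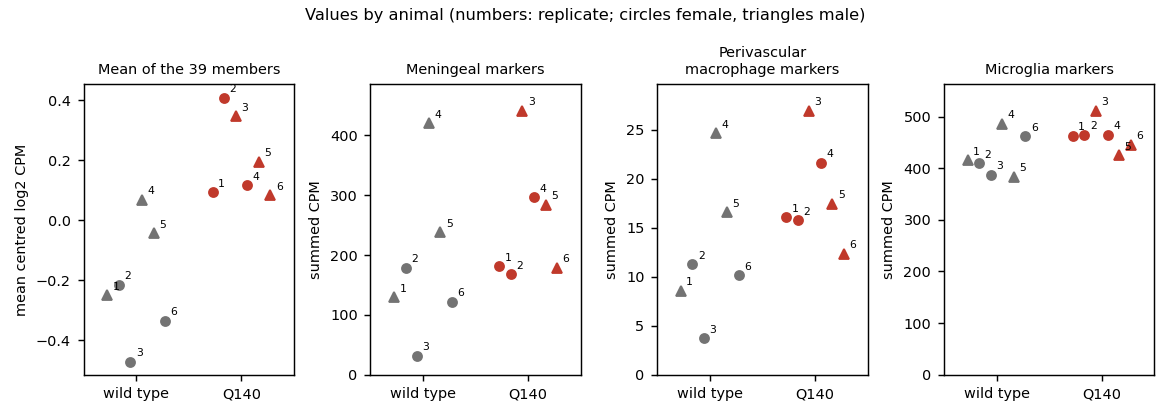
Each point is 1 animal, with wild types in grey, Q140 animals in red, circles for females and triangles for males. The left panel gives the mean of the 39 genes in centred log2 CPM and the others give summed CPM of 3 marker lists, and wild types 3 and 4 are the lowest and highest wild types in the first 3 panels.

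The count of genes past the threshold depended on which animals and terms entered the fit. Leaving out 1 animal gave 8 to 24 higher genes, and Herc6 was the 1 lower gene each time. The count was 8 without wild type 3, 9 without wild type 1 and 10 without Q140 animal 2 or 3. It was 12 without wild type 2 or 6 and 24 without wild type 4. Of all genes, 2.58% were higher without wild type 3, 2.59% without wild type 1 and 2.34% without Q140 animal 2. Without wild type 4 the share was 5.36%. The median log2 difference of the tested genes among the 43 ran from 0.38 without Q140 animal 2 to 0.48 without Q140 animal 6. Without wild types 3 and 6 together, 3 were higher (899 genes called in all, against 1974). With the mean of microglia, endothelial or meningeal markers as a term, 2, 2 and 9 were higher, and Herc6 was lower each time. Of all genes, 1.3%, 1.49% and 2.43% were higher in these 3 fits, against 4.55% as reported. The median log2 difference of the 39 was 0.36, 0.30 and 0.34. With the prefix of the animals' names as a term, whose meaning the labels do not give and which is spread unevenly over the genotypes, none of the 39 passed and 155 genes were called in all. None passed among the 5 animals numbered 150 or 161 alone, with the number as a term, where 1 gene was called in all. Under these 2 settings the median log2 difference of the 39 was 0.32 and 0.39, with 34 and 36 estimates above 0. Irgm1 and Herc6 passed in every alternative but these 2. The other genes past the threshold passed in 11 of 29 alternatives (Ifit3 and Iigp1) to 26 of 29 (Cmpk2).

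**Figure D5:**
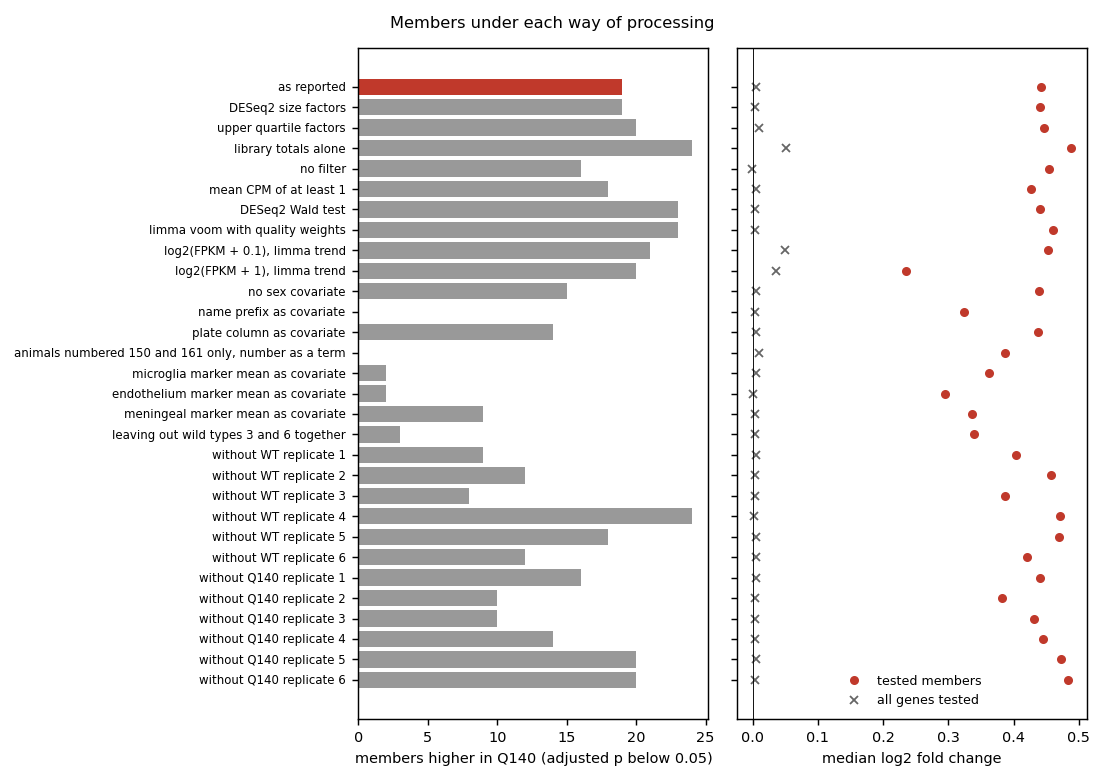
Bars give the number of tested genes higher in Q140 animals at an adjusted p of 0.05 under each setting, and points give the median log2 fold change of these genes (filled) and of all genes tested (crosses). The count runs from 0 to 24, and the median from 0.23, with a pseudocount of 1 on FPKM, to 0.49, with library totals alone.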

How the data were processed

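The piriform cortex RNA was purified on Qiagen RNeasy columns and sequenced from Illumina TruSeq stranded libraries, per the labels' protocols. The deposited count table holds whole, unnormalized read counts per gene, and, per the submitters' processing notes, the tools were HTSeq 0.12.3, STAR 2.7.5c and SAMtools 1.10, on a genome named as GRCm38 or mm10. Neither the annotation release nor whether counting used strand is given in the sources used here. Reads of overlapping or antisense genes can therefore not be told apart. The authors also deposited FPKM values, which are scaled for gene length and library total and were used to compare levels between genes.

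Counts were tested in R 4.3.3 with edgeR 4.0.16: TMM factors, the default expression filter by genotype (0.332 CPM in at least 6 libraries), and the robust quasi-likelihood test with sex as a covariate. Comparisons within each sex and their difference came from a model of the 4 groups of sex and genotype. Adjusted p-values are two-sided Benjamini-Hochberg values over all genes tested, with a threshold of 0.05. The code was checked on simulated counts. Coordinates, exon overlaps and shared 50-base stretches came from GENCODE M21 on GRCm38, matched by identifier.

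Alternatives were other size factors and filters, DESeq2 1.42.0, limma 3.58.1 (voom with quality weights, and log2 FPKM with pseudocounts of 0.1 and 1), other covariates, and each animal left out. Leaving out wild types 3 and 6 together was added after the data were seen. The genes and lists were chosen with earlier results of these data known. The lowest, median and highest values were given for the 16 genes with the smallest p among those that passed, the 3 highest and 3 lowest by FPKM, and from other lists up to 4 genes by smallest unadjusted p below 0.05, with Ifnar1, Ifnar2 and Ifnb1 always named. The result of 1 gene of the signalling list is not reported here.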

Additional observations from a re-analysis of the deposited data

Results flagged for a closer look

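A value was singled out when the highest or lowest of 6 animals lay far from the other 5 relative to the whole range of the group (Dixon's 95% limit). Chance alone does this in about 1 in 20 groups, and 8 of 86 groups of the 43 genes met it. Wild type 4 was high for Isg15 (1.67 CPM, the others 0.704 to 1.02), Ifi35 (3.35 CPM, the others 1.82 to 2.38) and Samd9l (9.03 CPM, the others 6.01 to 6.67). Wild type 6 was low for Rtp4 (1.32 CPM, the others 1.76 to 1.97). Q140 animal 2 was high for Ifit3b (7.76 CPM, the others 5.17 to 5.99) and Cxcl10 (0.711 CPM, the others 0.115 to 0.316). Q140 animal 3 was high for Gbp2 (5.77 CPM, the others 3.73 to 4.21), and Q140 animal 5 for Ifi44 (2.12 CPM, the others 0.812 to 1.12).

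Of 28 groups of summed cell type markers, 3 met the same limit. Q140 animal 3 was high for markers of T and NK cells (3.5 CPM, the others 1.58 to 2.27) and of pericytes (363 CPM, the others 258 to 292). Q140 animal 5 was low for red blood cell markers (31.5 CPM, the others 44.2 to 49.6).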

How the results depend on the processing

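None of the 578 values of the 20 genes past the threshold changed sign under an alternative, and 191 no longer passed. With the name prefix as a term the counts were 0 genes higher and 0 lower, 2 other interferon-stimulated genes, 0 of MHC class I presentation, 0 of JAK-STAT signalling and 0 of sensing; with the animals numbered 150 and 161 alone all of these were 0. With the microglia mean they were 2 higher, 2 of MHC class I, 0 of JAK-STAT and 0 of sensing. With the endothelium mean they were 2 higher, 4 other interferon-stimulated genes, 1 of MHC class I, 0 and 0. With the meningeal mean they were 9 higher, 3 of MHC class I, 0 and 0. Without wild types 3 and 6 they were 3 higher, 0 higher in females, 4 other interferon-stimulated genes, 1 of MHC class I, 0 and 0. Of all genes, 0.226% were higher with the name prefix, 1.3% with the microglia mean and 1.49% with the endothelium mean. The share was 2.43% with the meningeal mean and 1.79% without wild types 3 and 6. Library totals alone gave 15 higher in females, 1 in males, 9 of MHC class I, 6 of JAK-STAT and 3 of sensing. With library totals 9.21% of all genes were higher, against 4.55% as reported, and the median log2 difference over all genes was 0.051. DESeq2 gave 18 in females, 1 between males and females, 8 of MHC class I, 3 and 3. Voom gave 29 in females, 3 of JAK-STAT and 3 of sensing. FPKM with pseudocounts of 0.1 and 1 each gave 1 in males, 8 of MHC class I, 4 of JAK-STAT and 3 of sensing. Without a filter 2 of JAK-STAT and 2 of sensing passed, and with upper quartile factors 2 of JAK-STAT. Of all genes, 5.61% were higher with DESeq2, 5.99% with voom, and 8.89% and 8.94% with the FPKM pseudocounts of 0.1 and 1. The share was 2.53% without a filter and 4.85% with upper quartile factors. In either direction 2438 genes were called with library totals, 2461 with DESeq2 and 2497 with voom, against 1974 as reported. All these shares are of the test over both sexes, and none is given for the counts within females or males.

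Leaving out 1 animal gave 8 to 24 genes higher, 2 to 10 in females, 0 to 1 in males, 0 to 1 between males and females, 5 to 10 other interferon-stimulated genes, 3 to 7 of MHC class I, 0 to 3 of JAK-STAT and 0 to 3 of sensing. Beside these counts, the share of all genes higher in Q140 animals over both sexes ran from 2.34% without Q140 animal 2 to 6.03% without Q140 animal 5. The sign turned only for genes that had not passed. Gbp2 came to -0.00228 and Samd9l to -0.00241 with the name prefix. Dhx58 came to -0.0792 with the name prefix, -0.0554 with the animals numbered 150 and 161, -0.0107 to 0.169 with 1 animal left out (-0.0107 without wild type 6) and -0.0361 without wild types 3 and 6. Irf1 came to -0.0119 and -0.0466 with the endothelium and meningeal means, -0.0206 to 0.0948 with 1 animal left out (-0.0206 without Q140 animal 4, -6.96e-05 without Q140 animal 5) and -0.00573 without wild types 3 and 6. The cause of these changes was not tested, beyond the fewer animals in some fits.

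No paired analysis was possible because, of the 12 animals, only 5 share an animal number (150 or 161) with an animal of the other genotype, and the labels do not say what that number marks. The fit of these 5 with the number as a term called 0 of the 39 genes, with 3 Q140 animals and 2 wild types. Depth limits Cxcl10, Mx1, Oasl1, Zbp1 and the interferon genes, which were too low to test.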

Other observations

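In females, 8 of the 50 tested genes of the other interferon-stimulated list were higher in Q140 animals, against 2.85% of all genes. In males 1 was, Irgm2, against 0.463% of all genes. The test of the difference between the sexes passed for none of the 50. Ifi27l2a, a relative of Ifi27, read 0.214, 0.0691 and 0.0676 CPM in wild type females and 0.377, 0.910 and 0.833 CPM in Q140 females. It reached the filter level in 1 wild type and 5 Q140 animals, so it was tested only through the group in which it was higher, and its lowest values lie under the level that a count of 0 allows. A guanylate-binding gene, Gbp7, differed by 0.58 in females (edgeR adjusted p = 0.0257) and by -0.077 in males (adjusted p = 0.850). The difference between the sexes did not pass for Gbp7 (edgeR adjusted p = 0.471). Both genes were singled out after their values were seen.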
